A study of Mus musculus with 49 samples.

Results

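Zfp genes encode zinc finger proteins, and 142 of the 9020 genes listed for the 49 cells (1.57%) carry a name of this kind. They were chosen by name, as every listed gene whose symbol is Zfp followed by a number, and no measured value entered the choice. How many cells held RNA of each gene was asked, how unevenly it was spread over them, and whether both differed from those of other listed genes of similar mean level. All 142 matched a protein coding gene of GENCODE M21 on GRCm38.

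A classical zinc finger is a short protein fold that holds a zinc ion between a pair of cysteines and a pair of histidines (C2H2), and tandem arrays of such fingers read DNA sequence. Many mammalian members also carry a KRAB domain, which recruits the corepressor TRIM28 and, through it, the methyltransferase SETDB1 to silence retroelements and imprinted loci. The name is broader than this fold: Zfp36 (tristetraprolin) has CCCH fingers that bind AU-rich RNA and promote its decay through the CCR4-NOT deadenylase.

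The cells were neurons of wild-type CD1 mice, labelled with FlashTag at E13.5 and collected by patch pipette from the primary somatosensory cortex at P7. FlashTag is a dye that marks cells dividing at the ventricular surface when it is injected, so that neurons born together can be followed. Libraries held 3′ ends of the RNA and were made in 5 pools of 9 to 12 cells, with 209850 to 35342325 reads per cell and a median of 1240101. There is 1 condition and no animal is named for a cell, so the cells count as 1 sample and nothing was tested between them.

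Pan-neuronal markers were above 10 RPM (reads scaled to a common library total) for at least 2 of 4 genes in all 49 cells. In 14 cells at least 2 of 6 microglial markers reached this level, and in 8 cells hemoglobin genes took at least 1% of the RPM, up to 68.8%. At least 2 of 6 astrocyte markers reached 10 RPM in 40 cells, and 2 of 5 oligodendrocyte lineage markers in 17. For inhibitory neurons, 2 of 6 markers did so in 17 cells, and for excitatory neurons, 2 of 4 in 36. The table lists genes that reach 100 RPM in at least 2 cells. This limits how sparse a listed gene can be: each Zfp gene had at least 2 such cells, and the lowest second-highest value was 101.2 RPM. Of the 394 protein coding genes annotated with such a name, 36.04% were listed, beside 38.5% of all protein coding genes.

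To show what defines the family and what differs in Zfp36, the coding sequence of the first finger found in 7 of the genes is given on the sense strand, from the GENCODE M21 transcripts. Capitals mark the codons of the 4 zinc-binding residues. Zfp706, Zfp260 and Zfp445 are among the genes of highest mean, and Zfp536, Zfp462, Zfp84 and Zfp36 among those whose RNA was most uneven over cells for their mean.
Zfp706: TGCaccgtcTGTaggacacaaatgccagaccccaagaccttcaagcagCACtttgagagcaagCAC
Zfp260: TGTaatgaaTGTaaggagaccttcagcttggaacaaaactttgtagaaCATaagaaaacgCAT
Zfp445: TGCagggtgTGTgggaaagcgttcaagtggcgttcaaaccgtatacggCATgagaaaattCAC
Zfp536: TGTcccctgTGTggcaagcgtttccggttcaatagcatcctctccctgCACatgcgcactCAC
Zfp462: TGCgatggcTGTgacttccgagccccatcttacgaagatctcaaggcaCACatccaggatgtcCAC
Zfp84: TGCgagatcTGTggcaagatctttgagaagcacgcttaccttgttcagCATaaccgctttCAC
Zfp36: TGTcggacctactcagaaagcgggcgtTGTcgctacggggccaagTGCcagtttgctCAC
In the first 6, a pair of cysteine codons (TGT or TGC) is followed by a pair of histidine codons (CAT or CAC). In Zfp36 there are 3 cysteine codons and 1 histidine codon. The finger of Zfp706 spans residues 41 to 62 of a protein of 76 residues and is its single C2H2 finger, whereas 33 were found in Zfp462, a protein of 2495 residues.

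Across the 142 genes, C2H2 fingers together with a KRAB domain were found in 52 and C2H2 fingers without KRAB in 88. KRAB domains that depart from the motif searched would be missed, so the 88 may include some, and no looser match was tried. Zfp36 had the CCCH fingers, and in Zfp365 neither motif was found. On chromosome 7 lay 32 of the genes (22.5%), among them Zfp36 at chr7:28376784-28380253, Zfp84 at chr7:29768552-29779821, Zfp260 at chr7:30094777-30107622 and Zfp536 at chr7:37472135-37773641. Zfp706 lies on chromosome 15, Zfp462 on chromosome 4 and Zfp445 on chromosome 9.

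Zfp RNA was low and patchy. The mean level over the 49 cells had a median of 28.7 RPM over the 142 genes, from 4.75 to 333 RPM, and of 46.7 RPM over the other 8878 genes. A Zfp gene had at least 1 read in a median of 30 cells, from 5 to 49, against 37 cells for the other genes. The median gene reached 10 RPM in 13 cells and 100 RPM in 4, against 20 and 7 cells. In 46 genes (32.4%) the median cell held no read, as it did for 19.2% of the other genes.

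Mean levels were set beside the depth. The mean of an uneven gene is carried by few cells, so this cannot show how far depth limits detection, which was not tested. If each gene's mean RPM had been present in every cell, the shallowest cell would still have held at least 3 reads of 117 of the 142 genes, and 6.02 reads of the median gene. The highest cell of each gene held 68 reads or more, with a median of 256.5 reads.

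Few Zfp genes were present everywhere, and the share that rested on 1 cell was near that of all listed genes. Of the 142 genes, 2 (1.41%) had a read in every cell, beside 8.1% of all listed genes. A read was present in at most 20 cells for 30 Zfp genes (21.1%) against 12.7% of all listed genes. At least 50% of the summed RPM came from 1 cell in 12 Zfp genes (8.45%), beside 6.59% of all listed genes. Likewise 12 Zfp genes reached 10 RPM in at most 5 cells, a state of 6.43% of all listed genes. Over all Zfp genes the highest cell held a median of 26.1% of the RPM, from 7.66% to 76.1%, and over the other genes 19.8%.

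The unevenness is summarised by the effective number of cells, the number that would give the same concentration if they shared the RNA equally (1 over the sum of the squared cell shares). Its median was 7.21 for the Zfp genes and 10.4 for the others. These differences went with the mean level. Beside the 200 other genes nearest in mean RPM, the median ratio of the effective number was 0.95, and 79 genes lay below the median of their 200 and 63 above it. That is 55.6% below, with an exact 95% interval of 47.1% to 64.0%, where a gene in the middle of its 200 would lie at the median. For cells with a read, 72 lay below, 58 above and 12 at the median, with a median difference of -1 cell. The interval takes the genes as independent, which genes of the same cells are not.

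The same was seen within 5 bins of mean level that each held an equal number of listed genes. In the lowest bin, up to 20.5 RPM, which held 47 Zfp genes (33.1%), the median was 19 cells with a read for Zfp genes and 20 for the others. The median effective number there was higher for Zfp genes, at 4.81 cells against 4.58, and in each other bin it was lower. In the highest bin, which held 8, the medians were 47 and 48 cells. The largest departure in the effective number was in the next highest bin, with 12.8 cells for 16 Zfp genes and 14.6 for the others.

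**Figure D1:**
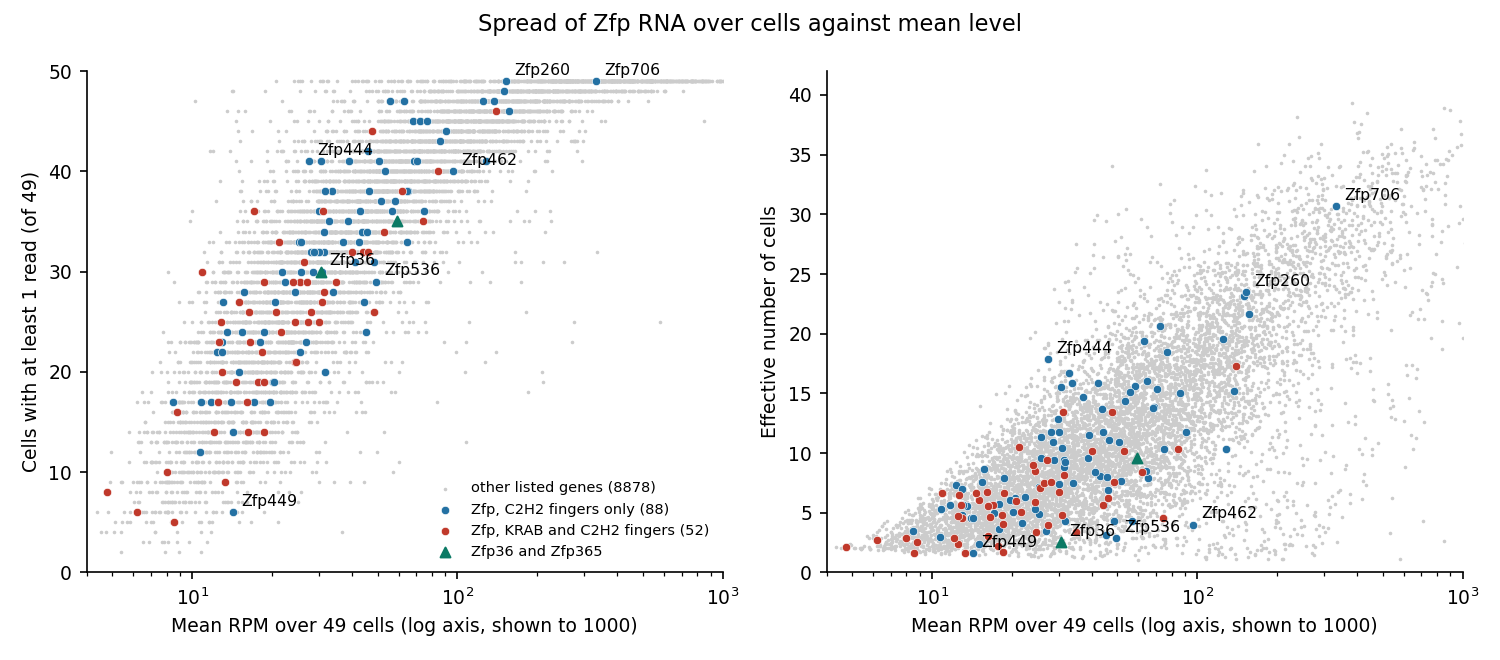
Each point is a gene, with its mean RPM over 49 cells on a log axis and the number of cells with a read (left) or the effective number of cells (right). The 142 Zfp genes, coloured by protein class, lie within the grey cloud of the 8878 other genes. Zfp536, Zfp462 and Zfp36 sit at its lower edge on the right.

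The 6 Zfp genes of highest mean RPM were Zfp706, Zfp428, Zfp260, Zfp207, Zfp445 and Zfp580. Zfp706 ranged from 2.72 to 1248 RPM, with a median cell of 321 RPM, and passed 100 RPM in 37 of 49 cells. Zfp260 was the most even at the low end: its lowest cell had 13.48 RPM, its median cell 94.1 and its highest 697, so that all 49 cells passed 10 RPM. Zfp207, the mouse BuGZ, which binds the spindle checkpoint protein BUB3, had a read in 48 cells, with a median of 108 RPM and a highest cell of 632 RPM.

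Zfp445, a KRAB protein that maintains imprints, was the KRAB gene of highest mean, at 140 RPM. It was read in 46 cells, with a median of 85.3 and a highest of 1014 RPM. Zfp428 reached 779 RPM and was read in 46 cells, and Zfp580 reached 1180 RPM and was read in 47. Because the reads are of 3′ ends, RPM was not divided by length. Per kilobase of exon the order changed, with Zfp428 first at 120 RPM per kb, Zfp580 next at 110 and then Zfp706 at 66.8. Of the 100-base windows at the 3′ end of Zfp706, 9.81% occur in another gene, and how many of its reads fall in them was not measured. By number of cells with a read, Zfp131 and Zfp512, with 47 cells each, joined Zfp706, Zfp260, Zfp207 and Zfp580 among the leading 6.

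The broadest genes for their mean were found lower down the scale. Zfp444 had a mean of 27.4 RPM and a highest cell of 177 RPM, and was read in 41 cells where similar genes were read in 30. Its effective number of cells was 17.9, against 7.90 in similar genes (ratio 2.26). Zfp106, an RNA-binding protein needed by motor neurons, was next, with 35 cells, a highest cell of 163 RPM and a ratio of 1.88. Zfp46, Zfp523, Zfp931 and Zfp180 followed with ratios from 1.67 to 1.73. For Zfp931, 9.16% of the 3′ windows occur elsewhere. These 6 genes were picked as the highest 6 ratios in the same cells, so their high values are a description. They stayed above similar genes, at ratios of at least 1.21, without any 1 library pool and without the cells rich in hemoglobin. They also did so with thinned cells and with both other ways of choosing similar genes.

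**Figure D2:**
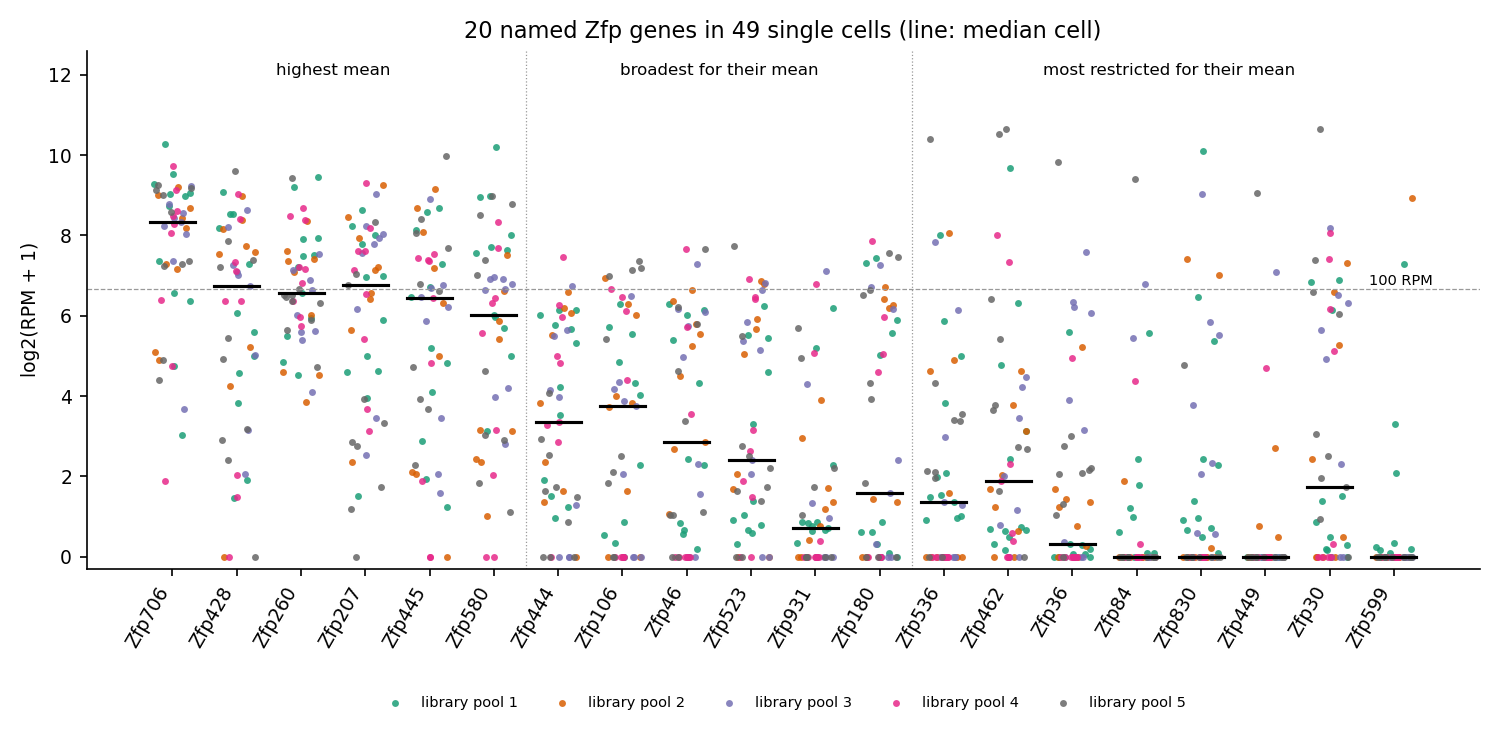
RPM of 20 Zfp genes in each of the 49 cells, as log2(RPM + 1), coloured by library pool; the black line is the median cell and the dashed line 100 RPM. The 6 genes of highest mean fill the upper range, whereas the 8 most restricted have most cells at or near 0 and between 2 and 8 cells above 100 RPM.

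The most restricted genes for their mean were Zfp536, Zfp462, Zfp36, Zfp84, Zfp830, Zfp449, Zfp30 and Zfp599, with ratios of 0.25 to 0.35. They were picked as the lowest 8 ratios, so their low values are a description. Zfp449, on the X chromosome, was read in 6 of 49 cells (12.2%, exact 95% interval 4.63% to 24.8%, for counting error only). It had 531 RPM in its highest cell, 135 in the next and 25.01 in the third, and the cell at 135 RPM was the one with 68.8% hemoglobin RPM. Zfp599 had 486 RPM in 1 cell, 154 in the next and 8.87 after that. Without pool 2, which holds its highest cell, its ratio was 0.57, and with similar genes chosen by mean log2(RPM + 1) it was 0.75. Zfp995 was read in the fewest cells of all, 5, and was picked out after its values were seen. Without pool 5, which holds the highest cell of Zfp449, its ratio was 0.72, and with similar genes chosen by mean log2(RPM + 1) it was 0.70.

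Zfp84 and Zfp30 are KRAB genes that lie close together on chromosome 7. Zfp84 was read in 14 cells, with 678 RPM in the highest, 110 in the next and 0 in the median cell. Zfp30 was read in 35 cells and had 1606 RPM in the highest, which is the shallowest cell of the set, and 291 RPM in the next. Their highest cells were different cells of pool 5. Without pool 5 their ratios were 1.27 and 1.06, above similar genes, and that of Zfp30 was 1.32 in thinned cells, which leave its highest cell out.

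Zfp462, a protein linked to neural development and chromatin, had 3 cells far above the rest, at 1610, 1477 and 822 RPM, in pools 5, 5 and 1, and a median cell of 2.72 RPM. Its ratio stayed between 0.23 and 0.42 in the main comparison and each of the 9 alternatives applied to named genes. Zfp830 had 1101 and 524 RPM in its highest cells, the next at 169 RPM, and no read in the median cell, and had ratios of 0.47 without pool 1, which holds its highest cell, and of at most 0.56 in the same comparisons. Of the 5 cells with Zfp462 above 100 RPM, 0 held at least 2 of 6 inhibitory markers, as against 17 of the other 44. Inhibitory RNA was not absent there: the summed level of these markers had a median of 91.1 RPM, against 24.4 RPM in the other 44. In the 3 cells of highest Zfp462 the sums were 30.6, 743 and 337 RPM, with 1 marker at 10 RPM in each. At least 2 microglial markers were held by 3 of the 5 cells, as by 11 of the other 44. How often listed genes with 5 cells at 100 RPM give such counts was not measured. Both counts are therefore a description of 5 cells.

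Zfp536, a repressor of neuronal differentiation, had 1349, 267, 257 and 227 RPM in its 4 highest cells, 1.58 RPM in the median cell and a read in 29 cells. These cells came from pools 5, 2, 1 and 3. All 4 held at least 2 of 6 inhibitory neuron markers at 10 RPM or more, as did 13 of the other 45 cells. The summed level of these markers was 409 to 1591 RPM in the 4 cells and 0.829 to 6332 RPM in the others, with a median of 23.4. Sums of immediate early genes were 1378 to 4320 RPM in the 4 cells. In the others they ran from 35.4 to 4798 RPM, with a median of 922 RPM. Of the 4 cells, 3 held 2 oligodendrocyte lineage markers, as did 14 of the other 45. Among all 768 listed genes with exactly 4 cells at 100 RPM, 2.34% had all 4 in such cells. Without pool 5 the ratio of Zfp536 rose from 0.25 to 0.69.

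The 4 cells did not carry the same markers. Gad2, which makes the transmitter GABA, was at 552, 324, 0.555 and 807 RPM in the order above, and the GABA transporter Slc32a1 at 462, 185, 0.139 and 45.9 RPM. The third cell had 317 RPM of the peptide gene Sst and 91.0 of Gad1. Lhx6 was at 0 in 3 of the 4. The excitatory marker sum in the third cell was 588 RPM. With a limit of 100 RPM for a marker, 3 of the 4 cells still held 2 inhibitory markers, as did 5 of the other 45. How much of the Zfp536 pattern goes with inhibitory, immediate early or oligodendrocyte lineage RNA was not tested.

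Zfp804a, linked to psychosis by human genetics, shared its highest cell with Zfp536, at 890 RPM, and its next had 674 RPM. The inhibitory marker sums there were 1195 and 982 RPM. Its next cells, at 163, 155 and 110 RPM, had sums of 5.02, 3.89 and 15.6 RPM, so that 2 of its 5 high cells held the markers, as did 15 of the other 44 cells. Among all listed genes with exactly 5 cells at 100 RPM, 1.24% had all 5 in cells with the markers, and 0 of the 15 Zfp genes of this kind did.

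Zfp36, which is also an immediate early gene, had 911 RPM in one cell of pool 5, 191 in one of pool 3 and 80.6 in the third, with a median of 0.237 RPM. The first 2 cells had the highest sums of microglial markers of the 49, at 7323 and 3697 RPM, against at most 2387 RPM and a median of 10.9 in the others. Other marker sums differed there too: those of astrocytes were 2206 and 2618 RPM against a median of 371 RPM in the others, and those of all neurons 1022 and 2312 RPM against a median of 5778 RPM. In the highest cell Tyrobp was at 3389 RPM, C1qb at 2012, C1qc at 1093 and P2ry12 at 724, while Csf1r was at 0. In the second all 6 markers measured were above 70 RPM. Of 1413 listed genes with exactly 2 cells at 100 RPM, 10.3% had both in cells holding 2 microglial markers, and of the Zfp genes 4 of 42 (9.52%).

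The immediate early gene list, of which 10 of 13 genes are in the table, was also highest in the first of these cells, at 4798 RPM, and at 1328 RPM in the second, against 35.4 to 4320 RPM in the others. The highest cell is among the 8 rich in hemoglobin, with 15460 RPM of hemoglobin. Without these 8 cells the effective number of Zfp36 was 5.21, above the 4.37 of similar genes, and without pool 5 it was 5.38 against 4.58. The part of microglial and astrocyte RNA in the Zfp36 level was not tested.

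**Figure D3:**
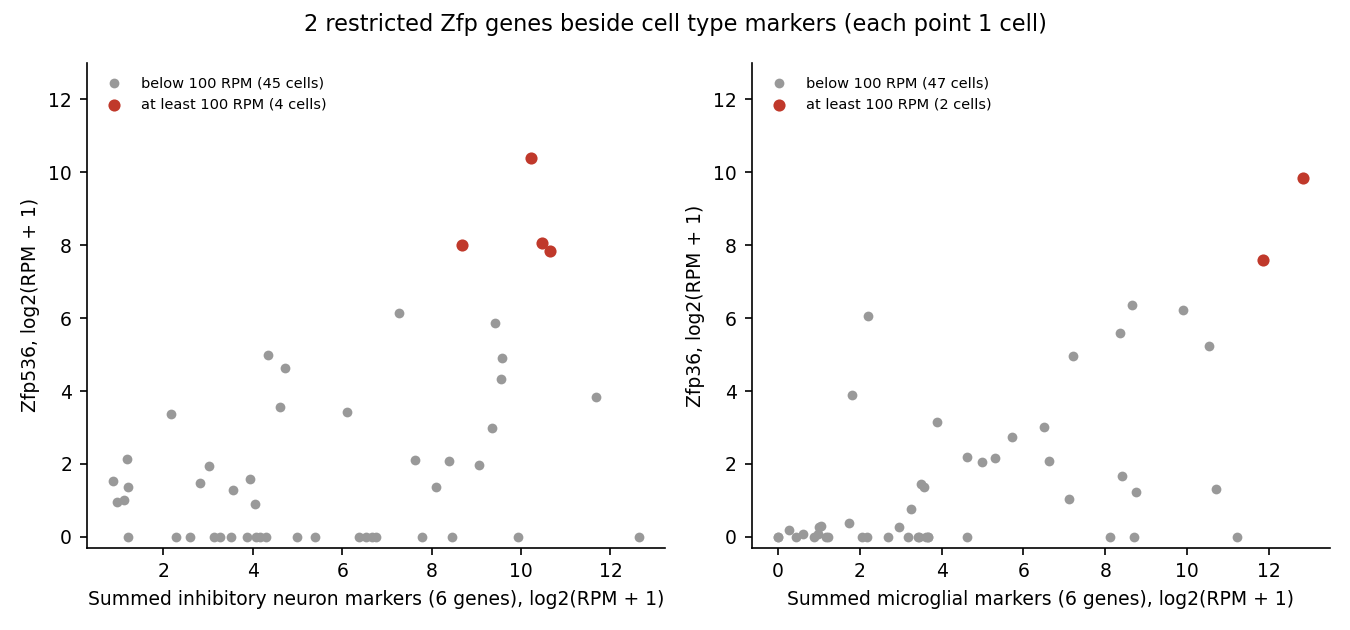
Each point is 1 cell, with the summed RPM of 6 inhibitory neuron markers against Zfp536 (left) and of 6 microglial markers against Zfp36 (right), as log2(RPM + 1). The 4 cells with Zfp536 at 100 RPM lie at marker sums of 409 to 1591 RPM, and the 2 with Zfp36 at 100 RPM have the highest microglial sums.

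The remaining genes are grouped by known role. Of 12 neural factors listed, 7 were in the table. Apart from the 3 above, Zfp704 had a highest cell of 346 RPM, a median of 8.60 and a read in 38 cells, with an effective number of 16.04 cells against 12.5 in similar genes. Zfp292 was read in 38 cells but reached 932 RPM in 1 and 367 in the next. Zfp365, which acts at the centrosome, was read in 35 cells and reached 700 RPM, and Zfp423, a factor of cerebellar and olfactory development, was read in 22 and reached 193 RPM.

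Of 8 chromatin partners, 5 were in the table, with a median of 41 cells with a read. Zfp148 and Zfp281, related repressors of GC-rich promoters, were alike, with means of 68.7 and 68.0 RPM, effective numbers of 13.8 and 13.7 cells, and reads in 41 and 45 cells. Zfp410, known for its selective activation of Chd4, was read in 30 cells with a mean of 28.5 RPM, while Chd4 itself was read in 46 with a mean of 106 RPM. Zfp532 was read in 32 cells and reached 272 RPM. Zfp512b was read in 42 cells, with 782 RPM in 1 cell and 171 in the next.

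Of 12 genes for RNA and protein handling, 11 were in the table, with a median of 36 cells with a read. Zfp451, a SUMO ligase, was among the evenest, with 45 cells, a median of 46.5 and a highest of 416 RPM. Zfp638 was read in 37 cells, Zfp91 in 40, Zfp326 in 36 and Zfp385b in 35. Zfp622, a ribosome biogenesis factor, was read in 44 cells and reached 728 RPM. Zfp598, which senses collided ribosomes, was read in 30 cells with a mean of 25.8 RPM. Zfp593 and Zfp346 were each read in 19 cells.

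Partner genes are given as levels, with no choice of genes of similar mean. Of 11 genes of the KRAB corepressor list, 9 were in the table, with a median of 46 cells with a read and a median mean of 106 RPM. Trim28 was read in 45 cells, with a median cell of 93.1 RPM, whereas Setdb1 was read in 33, with a median of 1.89 RPM. The 11 of 12 CCR4-NOT genes in the table had a median of 40 cells at a median mean of 53.5 RPM, near the 37 cells and 46.7 RPM of the listed genes that are not Zfp genes. Among them Cnot11 was read in 30 cells, and Cnot7, a catalytic subunit, was read in 48 with a median of 150 RPM.

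KRAB genes were sparser than the other C2H2 genes. The 52 KRAB genes had a median mean of 20.9 RPM and the 88 others 32.3 RPM, with reads in a median of 25.5 and 33 cells. The ranges overlapped nearly in full, from 5 to 46 and from 6 to 49 cells. Exactly 2 cells at 100 RPM, the fewest the listing allows, were seen in 24 KRAB genes (46.2%) and 17 others (19.3%), and in 15.4% of the listed genes that are not Zfp genes. Beside genes of similar mean, 14 KRAB genes had fewer cells at 100 RPM, 12 had more and 26 had as many. At least 50% of the RPM in 1 cell was seen in 8 KRAB genes (15.4%) and 3 others (3.41%), beside 6.59% of all listed genes. The share of the highest cell was above the median of genes of similar mean in 33 of 52 KRAB genes and 40 of the 88 others.

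Part of this gap remained beside genes of similar mean. Of the KRAB genes 35 of 52 (67.3%, exact 95% interval 52.9% to 79.7%) had a lower effective number of cells than similar genes, with a median ratio of 0.86. Of the others 42 of 88 (47.7%, 36.96% to 58.65%) did, with a median ratio of 1.05. The share was higher in KRAB genes under each of the 11 alternatives, with the smallest gap without pool 5, at 61.5% against 52.3%. With similar genes chosen without each gene's highest cell, the median ratios were 0.98 and 1.05. Between the lower and upper quartiles the ratios ran from 0.63 to 1.12 in KRAB genes and from 0.77 to 1.33 in the others. The groups were not tested against each other, since the genes share their cells.

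The number of fingers varied along with class. The 23 genes with 1 to 3 C2H2 fingers were read in a median of 36 cells at a median mean of 50.8 RPM, and 1 of them had KRAB. The 62 genes with 10 to 33 fingers were read in a median of 26.5 cells at 25.9 RPM, and 34 of them had KRAB. Across 140 genes Spearman's rho of finger number with cells read was -0.36 and with the ratio of the effective number -0.24, as a description across genes of the same libraries.

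**Figure D4:**
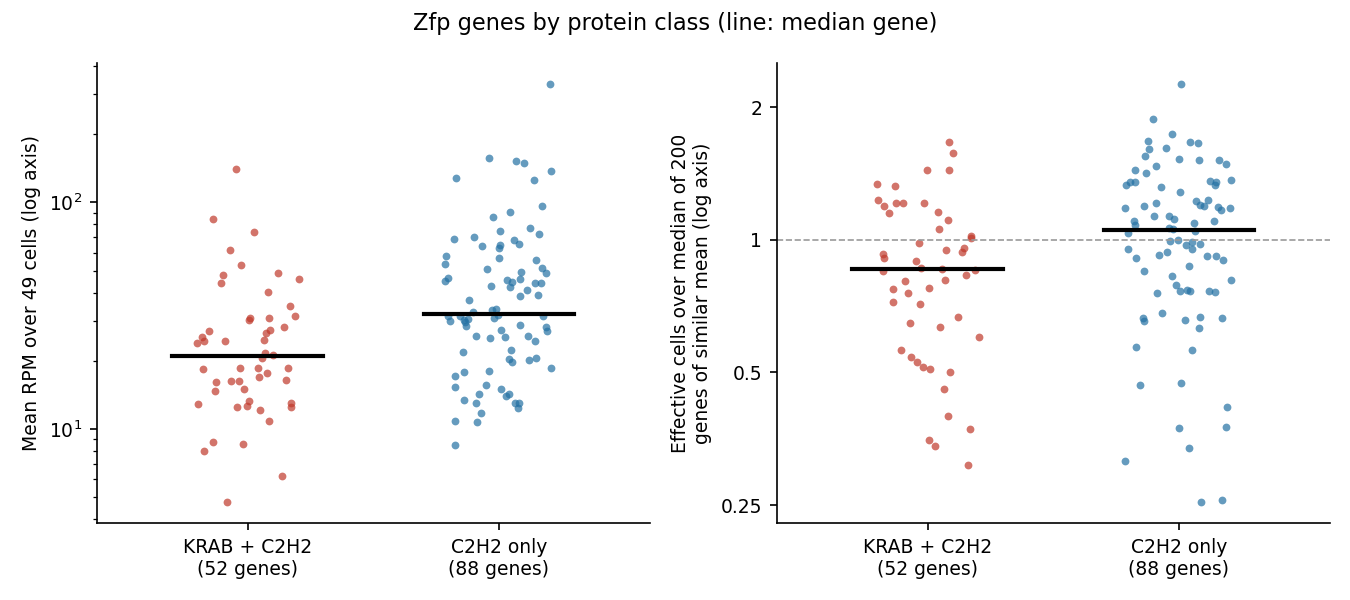
Mean RPM (left) and the ratio of the effective number of cells to that of 200 genes of similar mean (right), both on log axes, for 52 KRAB and 88 other C2H2 genes; each point is a gene and the line the median. The medians are 20.9 and 32.3 RPM, and 0.86 and 1.05, and the points of both classes overlap widely.

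Pairs of genes near each other on a chromosome were set beside pairs on different chromosomes. Within 200 kb lay 53 pairs, made of 53 genes, with a median Pearson r of 0.05 in log2(RPM + 1) over the 49 cells, from -0.19 to 0.54. Over 9121 pairs on different chromosomes the median was 0.07. An r above 0.3 was seen in 6 of the near pairs (11.3%) and in 671 of the others (7.36%). Near pairs were both at 10 RPM in 284 cells summed over pairs, 1.27 times the number for independent genes, and pairs on different chromosomes 1.25 times theirs. The highest r was that of Zfp777 and Zfp956 on chromosome 6, which were both read in 18 cells and had the same highest cell. Of the 53 near pairs, 2 shared a highest cell, and the other such pair, Zfp24 and Zfp397, had an r of -0.07. Shared highest cells were not counted for pairs on different chromosomes. Zfp260 and Zfp566, 4250 bases apart, had the lowest r. Zfp260 was read in all cells and Zfp566 in 14. Points share libraries and depth.

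The number of Zfp genes read differed widely between cells. Between 28 and 133 of the 142 were read per cell, with a median of 82. The share of Zfp genes read was below that of the other genes in 47 of 49 cells, with medians of 57.7% and 73.4%. It rose with depth, from a median of 63 genes in the 17 shallowest cells to 82.5 in the next 16 and 119 in the 16 deepest. The summed RPM of the family did not follow this order, with medians of 5809, 6101 and 5418 RPM. It ran from 1291 to 8958 RPM per cell, or 0.129% to 0.896% of the RPM.

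The highest values fell mostly in shallow cells, for Zfp genes and for the rest alike. The 17 shallowest cells held the highest value of 84 Zfp genes (59.2%) and of 57.5% of the other genes, and the 16 deepest held 10.6% and 14.4%. The most were in cell 1 of pool 5 and cell 2 of pool 2, with 11 Zfp genes each, and cell 6 of pool 3, with 10. A single read is worth 4.77 RPM in the shallowest cell and 0.0283 RPM in the deepest. The leading Zfp gene of a cell was Zfp706 in 17 cells and 1 of 26 other genes in the rest.

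**Figure D5:**
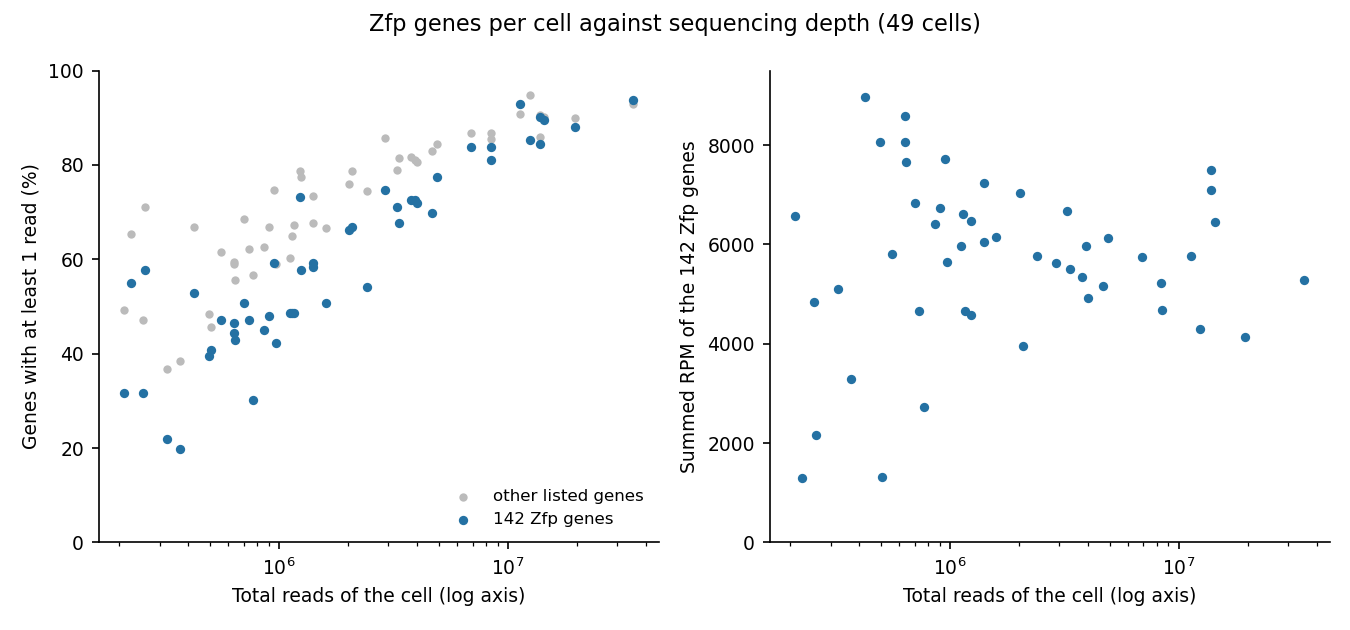
For each of the 49 cells, the share of Zfp genes and of other listed genes with a read (left) and the summed RPM of the 142 Zfp genes (right), against the cell's total reads on a log axis. The share read rises with depth from 19.7% to 93.7%, while the summed RPM shows no such rise.

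Detection was also compared by pool. Other cells of the pool that held a gene's highest cell had a read of it in a median of 73.9%, and cells of other pools in 60%. For the other genes these were 87.5% and 74.4%. The share was higher in the own pool for 78 of the 142 genes (54.9%) and for 59.7% of the others. For the 18 Zfp genes highest in pool 1, the pool of deepest median, the shares were 95.5% and 54.1%. For the 45 highest in pool 5, the pool of lowest median at 814366 reads, they were 77.8% and 59.0%. For the 27 highest in pool 4 they were 50% and 65%. In pool 2, with 32 such genes, the shares were 56.25% and 53.75%, and in pool 3, with 20, they were 56.25% and 65%. The part of depth and of reads passing between libraries was not tested.

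Reads of some Zfp genes cannot be placed with certainty. Exons of 12 genes overlap another gene on the same strand and those of 35 on the opposite strand, and whether counting used the strand is not stated. Of the genes named above, Zfp512b, Zfp91, Zfp956 and Zfp566 overlap on the same strand, and Zfp706, Zfp428, Zfp36, Zfp106, Zfp523, Zfp704, Zfp532, Zfp512b, Zfp410, Zfp593, Zfp346 and Zfp777 on the opposite one. Of the 142 genes, 7 share more than 5% of their 3′ windows with another gene, at most 50.6%.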

How the data were processed

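RPM values of 49 single cells were analysed, all from 1 table. According to the paper's methods and the labels, cDNA was made with a SMART-Seq v4 3′ DE kit, and Nextera XT libraries were aligned to mm10 with STAR and counted with HTSeq by the authors, who deposited RPM values, scaled to each cell's total. Versions, annotation and strand setting are not given in the sources used here. The kit has no molecular identifiers.

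Reads per value were recovered by dividing by the value of 1 read in each cell, and 100% of the nonzero results were whole to within 0.01. Similar genes were the 200 other listed genes nearest in mean RPM on a log2 scale. Thinned cells had 358412 reads, the 10th percentile, which left out 5 cells. Log scales used a pseudocount of 1. Detection was from 1 read, with Clopper-Pearson intervals at 95%. Scripts were tested on simulated data. Python 3.11.15, numpy 2.4.6, scipy 1.17.1, R 4.3.3 and, for TMM scaling, edgeR 4.0.16 were used.

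Fingers and KRAB domains were searched in proteins translated from GENCODE M21 coding transcripts, in place of the RefSeq proteins planned. C2H2 was 2 cysteines 2 to 4 residues apart, then 12 residues, then 2 histidines 3 to 5 apart, and KRAB at least 9 of 12 conserved positions. Genes named were the 6 of highest mean, the 6 read in most cells, the 8 lowest and 6 highest ratios of effective number, and role lists, of which genes absent from the table were not analysed here. The genes and lists were chosen with earlier results of these data known. Alternatives included other detection limits, thinning, other sets of similar genes and leaving out each pool.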

Additional observations from a re-analysis of the deposited data

How the results depend on the processing

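No paired analysis was possible because the series holds a single condition. The share of Zfp genes below similar genes in effective number stayed between 50% and 57.7% in 15 alternatives, and that of KRAB genes between 57.7% and 73.1% in 11, all within the intervals of the main values. For cells with a read, 11 of 12 alternatives stayed within the interval, and choosing similar genes by mean log2(RPM + 1) gave 38.03% below.

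Measures with a detection limit moved with it. The median Zfp gene was detected in 61.2% of cells at 1 read, 32.7% at 10 reads, 26.5% at 10 RPM and 45.5% in thinned cells. Per cell, 57.7% of Zfp genes were read, against 31.7% at 10 reads, 30.99% at 10 RPM and 44.7% in thinned cells. The share of Zfp genes with at least 50% of their RPM in 1 cell was 8.45%. It was 16.9% without pool 1, 16.2% without pool 2, 16.9% without pool 3, 14.8% without pool 4 and 10.6% without pool 5. Each of these settings leaves fewer cells, and the share of all listed genes was not computed for them. On a log2(RPM + 1) scale, which compresses high values, the share of Zfp genes was 0%. Alternatives that left out the cells rich in hemoglobin, and those on shared 3′ windows, marker limits and further ones for KRAB genes, were chosen after seeing the data. In the shallowest cell a gene below 4.77 RPM is expected to give less than 1 read. How far depth limits detection was not tested.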

Other observations

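The 28 listed genes named Zbtb, Zkscan or Zscan, which encode C2H2 proteins with a BTB or SCAN domain or are named after one, were read as follows. Their mean level had a median of 25.5 RPM, from 11.4 to 243 RPM, and a read was present in a median of 28 cells, from 12 to 49. Beside 200 genes of similar mean, 14 of the 28 had a lower effective number of cells and 14 a higher one, with a median ratio of 0.98. A read in every cell was seen for 2 of the 28 (7.14%) and for 2 of the 142 Zfp genes (1.41%), beside 8.1% of all listed genes. The 2 families were alike at other limits. A read in at most 20 cells was seen for 21.4% of the 28 and 21.1% of the Zfp genes. In at least 40 cells it was seen for 17.9% and 18.3%.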
